A study of Mus musculus with 8 samples.

Results

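Rab GTPases and the TBC proteins that switch them off were read in mouse erythroid cells that carry either wild type KLF1 or the E339K mutant of KLF1. Members were the genes whose symbol is Rab followed by a digit, or starts with Tbc1d or Rabgap, and they numbered 77 of the 11364 genes in the deposited expression tables. To these were added the KLF1 sites whose closest transcription start site (TSS) belongs to such a gene, 33 of the 5551 sites in the merged set, spread over 23 of the 77 genes. By name, 41 members are Rab GTPases and 27 are TBC proteins. The naming rule also takes 9 genes that are neither, namely the Rab11fip effectors, the Rab3gap subunits, Rab3il1 and Rab3ip.

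Rab proteins are small GTPases that sit on the surface of a given organelle when bound to GTP and recruit the motors, tethers and coats that move and dock vesicles. Exchange factors load them with GTP, and GTPase-activating proteins, most of them with a TBC domain, make them hydrolyse it and leave the membrane. In developing red cells this traffic recycles the transferrin receptor through early and recycling endosomes, which brings in iron for haemoglobin, and later clears organelles.

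The K1 line is an immortalised erythroid line that lacks Klf1. KLF1-ER and KLF1-E339K-ER are wild type and mutant KLF1 fused to a tamoxifen-responsive part of the estrogen receptor and put into K1 cells by retrovirus, so every group shares the Klf1-null background, and the transgene is not under the Klf1 promoter. The RNA samples were 3 libraries of K1 cells, 2 given 4-OHT and 1 given ethanol, and 3 libraries of induced K1-E339K-ER cells (the labels write K1-CDA-ER), each from another clone (1B, 2A and 2B), all made from RNA newly labelled with 4-thiouridine (4sU). The ChIP-seq samples were 1 ChIP and 1 input library of K1-E339K-ER clone 2A after 3 h in 200 nM 4-OHT, with 3 replicates pooled before sequencing and an antibody against the estrogen receptor. The KLF1-ER values came from libraries of earlier work by the same authors and have no sample here. The site table gives 1 mean per protein and the expression files 1 mean per gene over all libraries, with no value per library, so no replicate error, no depth and no test could be given for any value in the text, and every comparison is between 2 means.

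Of 15 erythroid markers, 13 were listed, with mean levels from 3.79 (Hba-a1) to 9.79 (Gata1) on the log2 CPM scale. The 3 T cell, 3 B cell and 3 hepatocyte markers were not listed. Among markers of related lineages, Emr1 stood at 3.69 and Cd68 at 0.24 for macrophages, with Csf1r not listed, and Itga2b stood at 5.30 and Gp9 at 1.79 for megakaryocytes, with Pf4 not listed. Klf1 itself stood at 6.84, a mean over null and transgenic cells that does not check the labels. The part of other cell types in the levels of the Rab and TBC genes was not tested.

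The sites are shown first by their sequence, because the 2 proteins were compared over the G-rich motif that KLF1 reads. The motif has 9 positions. With a pyrimidine at position 5 it is any base followed by GGGCGGGG, GGGCGTGG, GGGTGGGG or GGGTGTGG, and with a purine there it is any base followed by GGGAGGGG, GGGAGTGG, GGGGGGGG or GGGGGTGG. The paper derived the purine form from ChIP-seq peaks of the mutant protein and the pyrimidine form from those of the wild type, by motif search. Matches were sought on both strands, up to 50 bp either side of the middle of a site, and those of the 2 forms may overlap. Each line gives the name, the mm9 window with the strand on which the sequence is read, and the sequence in lower case from 5′ to 3′, shortened to 29 bases around 1 match where the window meets an exon.

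The first set holds the 8 sites that had more KLF1-ER than KLF1-E339K-ER signal and a pyrimidine form, and capitals mark the motif with a pyrimidine at position 5.
Rab3d, chr9:21722642-21722670 (+ strand): gggcctagaaGGGGCGGGGcgccttgaga
Rab1b, chr19:5107014-5107042 (- strand): ctgcgcggcgCGGGCGGGGcctctagggc
Rab11a site 1, chr9:64412470-64412570 (- strand): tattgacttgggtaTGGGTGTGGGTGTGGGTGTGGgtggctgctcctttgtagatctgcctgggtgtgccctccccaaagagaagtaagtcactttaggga
Rab11a site 2, chr9:64486289-64486317 (+ strand): gtgagtagcgAGGGCGTGGcttggggtgg
Rab11a site 3, chr9:64519528-64519628 (- strand): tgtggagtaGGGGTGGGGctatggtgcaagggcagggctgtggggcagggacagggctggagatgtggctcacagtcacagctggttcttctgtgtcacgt
Rab11a site 4, chr9:64519897-64519997 (- strand): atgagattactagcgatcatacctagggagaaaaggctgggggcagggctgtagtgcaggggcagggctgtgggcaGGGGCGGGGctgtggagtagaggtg
Tbc1d14, chr5:36924593-36924693 (- strand): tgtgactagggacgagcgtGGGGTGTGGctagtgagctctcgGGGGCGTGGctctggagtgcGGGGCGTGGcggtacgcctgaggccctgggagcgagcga
Tbc1d24, chr17:24343514-24343542 (- strand): atctgcaagcTGGGCGTGGactgggcgga
Rab11a site 1 carries 3 overlapping copies with T at position 5 in a short repeat, and Tbc1d14 carries copies with C and with T.

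The second set holds sites with more KLF1-E339K-ER signal, and capitals mark the motif with a purine at position 5. A pyrimidine form that overlaps one, as at Rab4a site 1, Tbc1d10b site 1 and Tbc1d2b, falls partly or wholly within those capitals. Rab5b also holds a separate pyrimidine form, left in lower case, 29 bp from the midpoint, where the marked purine form is at 39 bp.
Rab5b, chr10:128136885-128136985 (+ strand): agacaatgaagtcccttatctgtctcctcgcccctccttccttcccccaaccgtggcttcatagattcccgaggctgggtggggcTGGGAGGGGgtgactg
Rab4a site 1, chr8:126299793-126299893 (- strand): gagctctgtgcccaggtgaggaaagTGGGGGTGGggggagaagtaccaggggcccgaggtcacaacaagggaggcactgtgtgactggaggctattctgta
Rabgap1l site 1, chr1:162255881-162255981 (- strand): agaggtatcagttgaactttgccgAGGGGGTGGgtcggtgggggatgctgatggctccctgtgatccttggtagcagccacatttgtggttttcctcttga
Rabgap1l site 2, chr1:162672693-162672793 (- strand): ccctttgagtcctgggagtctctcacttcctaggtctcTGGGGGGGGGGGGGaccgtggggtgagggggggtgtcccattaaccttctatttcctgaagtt
Tbc1d10b site 1, chr7:134350856-134350956 (- strand): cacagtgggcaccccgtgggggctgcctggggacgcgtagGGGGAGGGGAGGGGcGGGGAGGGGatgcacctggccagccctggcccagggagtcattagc
Tbc1d2b, chr9:90150788-90150888 (- strand): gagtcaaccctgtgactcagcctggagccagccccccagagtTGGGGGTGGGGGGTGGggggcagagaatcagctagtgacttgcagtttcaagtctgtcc
Tbc1d9, chr8:85690068-85690096 (+ strand): acgggggcgaCGGGGGTGGcggcggcgga
Rab11fip3, chr17:26169160-26169260 (- strand): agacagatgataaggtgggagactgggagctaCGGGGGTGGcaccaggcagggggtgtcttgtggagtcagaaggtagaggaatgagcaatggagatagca
Tbc1d10b site 1 carries 3 copies with A at position 5, Tbc1d2b carries 2 overlapping copies with G, and Rabgap1l site 2 carries a run of G that gives 6 overlapping matches.

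The last set holds 2 sites that went another way. Rab3il1 had nearly equal signal of both proteins and capitals mark its 2 purine forms, the first of which overlaps a pyrimidine form. Rabgap1 had signal of the mutant with the wild type at its lowest value, and capitals mark the pyrimidine form, the single match in its window.
Rab3il1, chr19:10088612-10088712 (+ strand): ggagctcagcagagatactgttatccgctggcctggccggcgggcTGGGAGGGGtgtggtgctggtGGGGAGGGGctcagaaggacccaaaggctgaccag
Rabgap1, chr2:37307884-37307984 (+ strand): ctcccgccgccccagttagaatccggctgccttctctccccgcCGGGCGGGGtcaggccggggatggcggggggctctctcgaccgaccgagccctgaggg

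Over the 33 sites the purine form was present at 9 (27.3%, against 35.5% of all sites) and the pyrimidine form at 14 (42.4%, against 35.3%), with both at 5 and neither at 15. Among the 18 sites with more mutant signal, 8 held the purine form (44.4%, against 45.8% of all such sites) and 5 the pyrimidine form (27.8%, against 22.8%). Among the 10 sites with more wild type signal, 8 held the pyrimidine form (80.0%, against 60.7%) and 0 the purine form (16.0% over all such sites). Of those 8, 4 were the Rab11a sites, all inside another gene, Megf11, and nearer to a start of that gene. The purine share at the mutant-favoured sites was thus close to that of the whole set, and with 10 sites the wild type shares rest on few windows. Within 1 kb of the TSS the purine form stood at 1 of 16 sites (6.25%, against 31.3% of all sites that close). That site was the Tbc1d9 site. Beyond 1 kb the purine form stood at 8 of 17 (47.1%, against 38.3% of all such sites). The pyrimidine form was also scarcer close to the TSS, at 4 of 16 sites, against 37.3% of all sites that close. Beyond 1 kb it stood at 10 of 17 (58.8%, against 33.9%). Neither form was found at 11 of the 16 close sites, beside 940 of 2190 over the whole set. A match is a string of letters and says nothing of which protein was on it. Both forms were found in peaks that went into this site set, so their shares by class were no independent check of the motif. Those shares show only how the Rab and TBC sites stood beside the whole set.

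**Figure D1:**
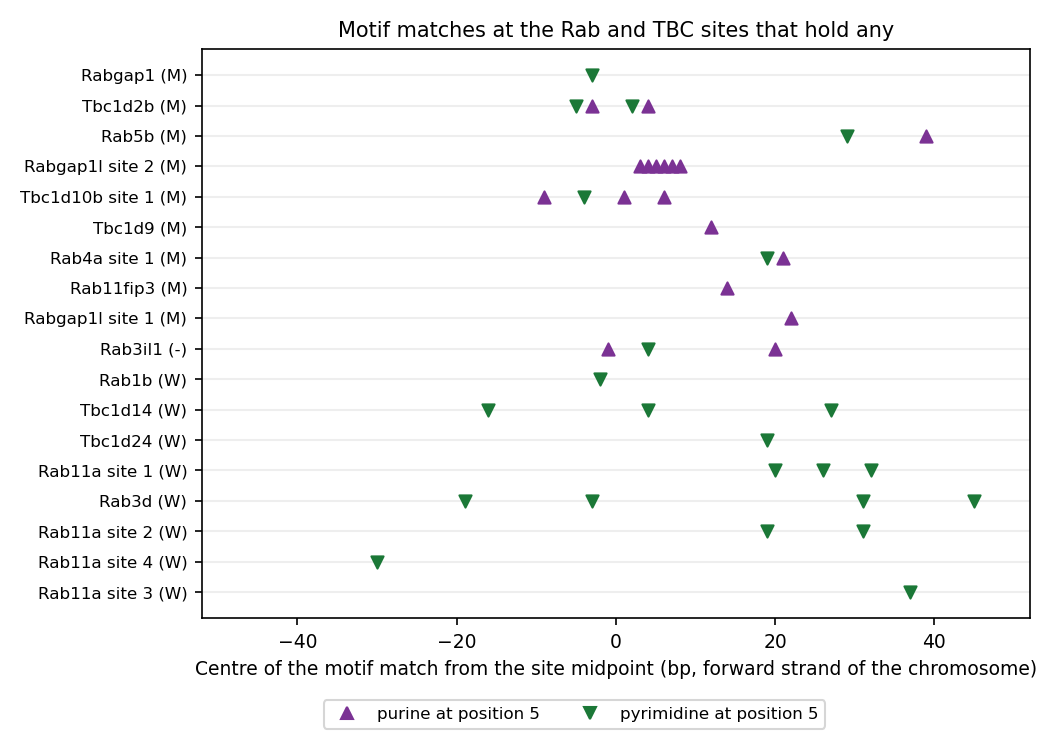
Motif matches within 50 bp of the midpoint (x axis, bp, forward strand of the chromosome) at the 18 Rab and TBC sites that hold any, ordered from the most mutant-favoured site at the top to the most wild type-favoured at the bottom. M marks sites with more mutant signal, W sites with more wild type signal and a dash the site with nearly equal signal. In this window the purine form (upward triangles) is absent from every W site drawn.

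Signal at a site is given as the concentration, the log2 of the authors' mean normalized read count for each protein, and a site was called when the 2 means differed by at least 1, which is 2-fold. By that rule 18 of the 33 sites (54.5%) had more KLF1-E339K-ER signal, where 61.5% of all 5551 sites did. A further 10 sites (30.3%) had more KLF1-ER signal, where 28.7% of all sites did, and 5 sites (15.2%, against 9.84%) lay between. Both shares lay near those of the whole set. The balance depended on the sites counted: without sites at a lowest listed value, 10 (41.7%) had more mutant and 9 (37.5%) more wild type signal, against 50% and 36.3% of all such sites, and with a higher concentration of at least 5 the counts were 9 (40.9%) and 10 (45.5%), against 59.5% and 30.5%. Of the 23 genes, 12 had sites with more mutant signal alone, 6 had sites with more wild type signal alone, 3 had sites in neither class, and Rab5a and Rabgap1l had sites of 2 classes.

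For 8 of the 18 mutant-favoured sites the KLF1-ER value was -0.09, the lowest listed for that protein and shared by 1424 sites of the whole set, so no fold is given for them. For 1 wild type-favoured site, Rab11a site 3, the KLF1-E339K-ER value was -0.38, the lowest listed for the mutant. Over the mutant-favoured sites the median concentration was 0.91 for KLF1-ER and 5.01 for KLF1-E339K-ER, beside 0.91 and 5.25 over all such sites. Over the wild type-favoured sites it was 5.56 and 2.60, beside 5.35 and 2.21. The higher of the 2 concentrations had a median of 5.20 at the Rab and TBC sites and 5.29 at all sites.

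**Figure D2:**
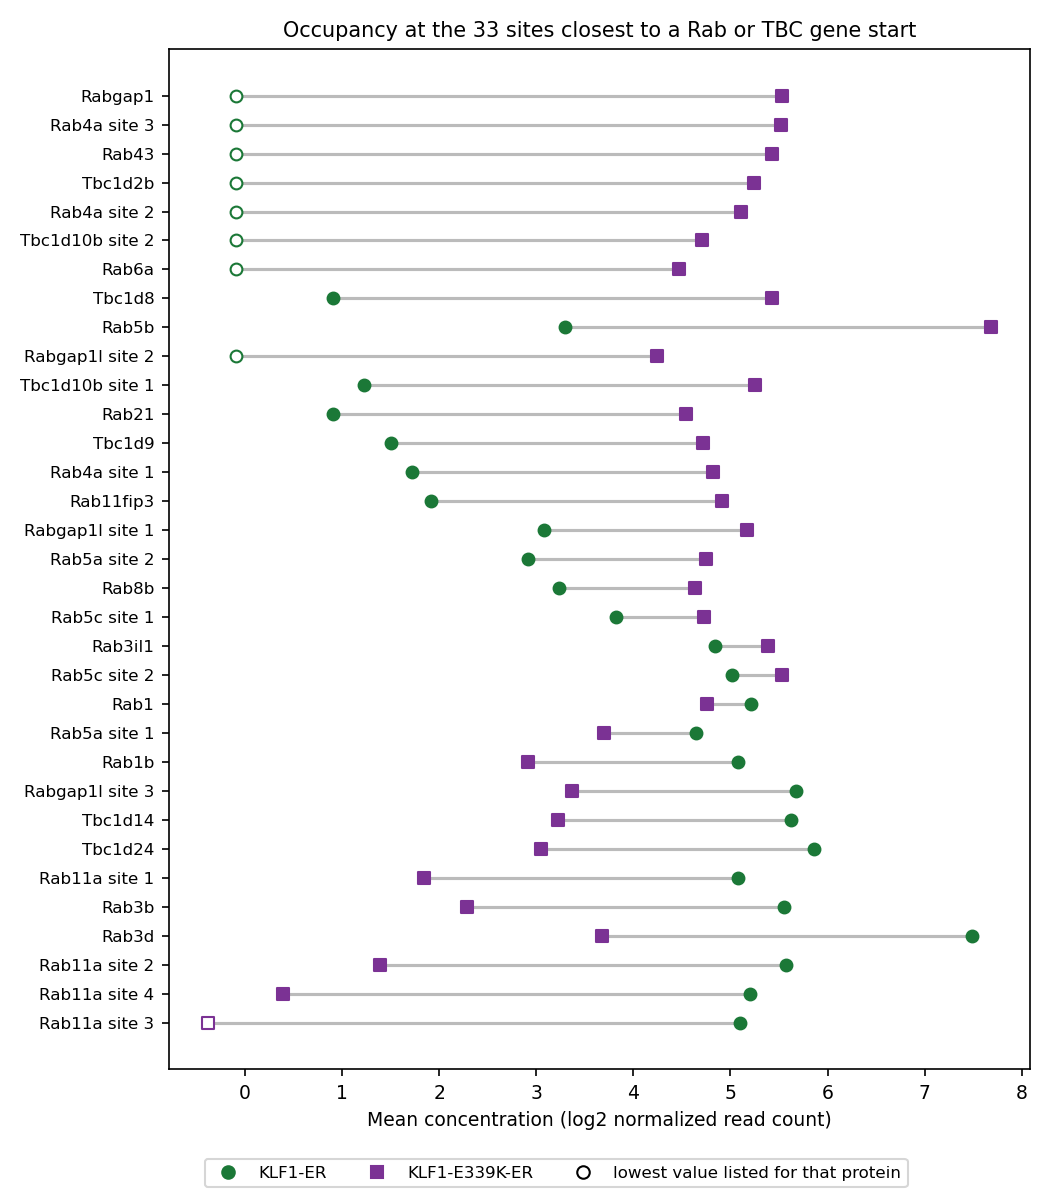
Mean concentration (x axis, log2 normalized read count) of KLF1-ER (circles) and KLF1-E339K-ER (squares) at each of the 33 sites, one row a site, ordered by the difference, with open symbols at the lowest value listed for a protein. Rabgap1 at the top pairs -0.09 with 5.53, and Rab11a site 3 at the bottom pairs 5.10 with -0.38.

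**Figure D3:**
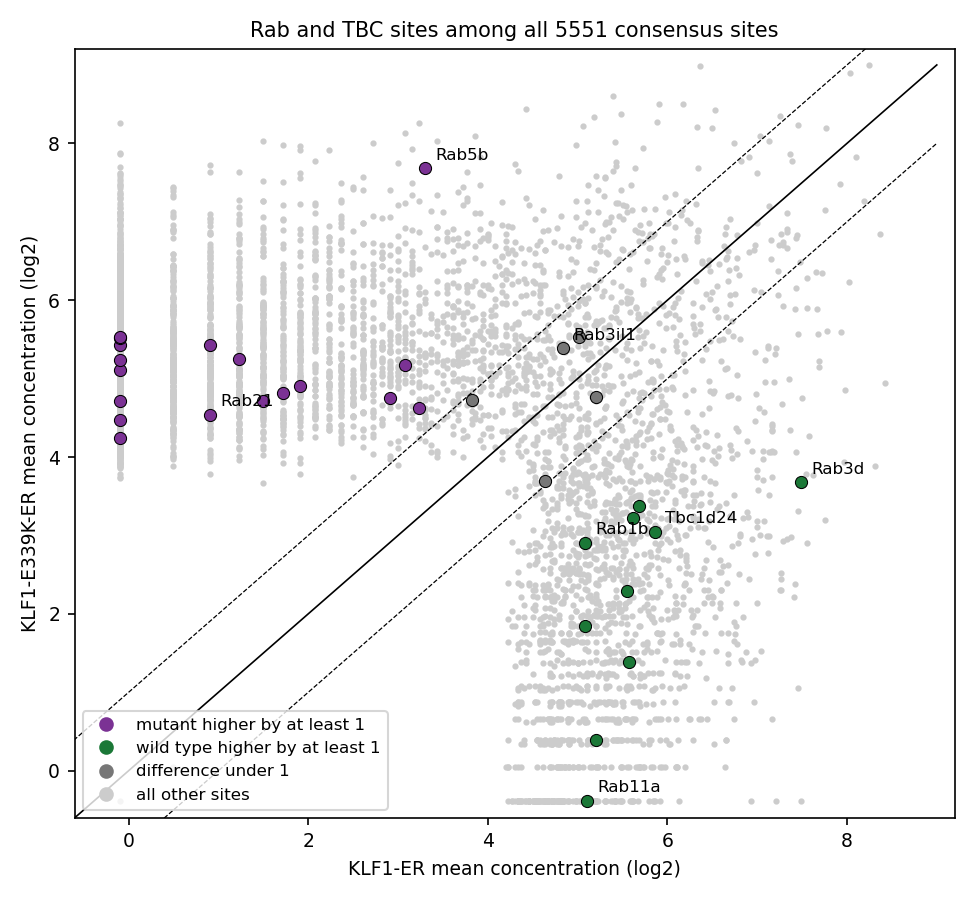
KLF1-E339K-ER concentration (y axis, log2) against KLF1-ER concentration (x axis, log2) at all 5551 sites in grey, with the 33 Rab and TBC sites in colour by class. The solid line marks equal values and the dashed lines a difference of 1; Rab3d lies at 7.49 and 3.68 and Rab5b at 3.30 and 7.68.

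The early endosome Rabs, which govern the first sorting station after endocytosis, had 9 sites at 5 genes. Of these 6 had more mutant signal (66.7%, near the 61.5% of all sites). Another 3 were in neither class (33.3%, against 9.84%) and 0 had more wild type signal (28.7% of all sites). Rab5b, which acts with its paralogs in fusing early endosomes, had the strongest mutant signal of the 33 sites, at 7.68 against 3.30 for the wild type, 20.8-fold more, above 99.1% of all sites for the mutant. That site at chr10:128136697-128137173 (mm9) lay 3611 bp upstream of the Rab5b TSS, inside an intron of the neighbouring Cdk2.

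Rab5a had 2 sites on either side of its TSS whose midpoints were 426.5 bp apart and of which 1 was called. The upstream site at chr17:53618047-53618405 stood at 4.64 for KLF1-ER and 3.70 for KLF1-E339K-ER, a difference just under the 2-fold rule. The site 93.5 bp downstream of the TSS, in an untranslated region, stood at 2.91 and 4.75, 3.58-fold more for the mutant. Neither window held either form of the motif. Rab5c also had 2 sites, 1107.5 bp apart, and both were near balance. Its inner site stood at 3.82 for KLF1-ER and 4.73 for KLF1-E339K-ER, just inside the rule, and its upstream site at 5.02 and 5.53. The 3 Rab5 paralogs thus each had a site, and of their 5 sites only that of Rab5b and the downstream one of Rab5a passed the 2-fold rule.

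Rab4a, which sends cargo from early endosomes straight back to the surface, had 3 sites from 23729 to 30053 bp upstream of its TSS, all within an intron of the gene model Gm20388. Site 1 stood at 1.72 for KLF1-ER and 4.82 for KLF1-E339K-ER, 8.57-fold more for the mutant. Sites 2 and 3, 493.5 bp apart, stood at the lowest KLF1-ER value, -0.09, with 5.11 and 5.52 for the mutant. All 3 sites leaned the same way, and site 1 alone held the motif, in both forms. Rab21, an early endosome Rab that handles integrins, had a site 12.5 bp upstream of its TSS at 0.91 for KLF1-ER and 4.54 for KLF1-E339K-ER, 12.4-fold more for the mutant. Rab22a, Rab4b and Rab31 were the closest TSS of no site. A site assigned to Ppp4r1l-ps lay 492 bp from the Rab22a TSS, at -0.09 for KLF1-ER and 4.2 for KLF1-E339K-ER, and one assigned to Egln2 lay within 10 kb of the Rab4b gene, at 0.50 and 4.59.

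Recycling and plasma membrane Rabs had 5 sites, of which 4 had more wild type signal (80.0%, against 28.7% of all sites). All 4 of those were assigned to Rab11a, the Rab of the recycling endosome. Site 1 stood at 5.08 for KLF1-ER and 1.84 for KLF1-E339K-ER, and site 2 at 5.57 and 1.39. Sites 3 and 4, 369 bp apart, stood at 5.10 and 5.20 for KLF1-ER, with the mutant at -0.38, its lowest listed value, and 0.39. All 4 windows held the pyrimidine form and none the purine form. The sites lay from 65615.5 to 173042.5 bp downstream of the listed Rab11a TSS, all inside Megf11, which encodes a cell surface protein with EGF-like repeats. In GENCODE M1 a Megf11 start was nearer to each of them, at 11312 to 21982 bp. Their link to Rab11a rests on the authors' closest TSS alone.

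Rab8b, which carries cargo to the plasma membrane, had the smallest difference among the called sites, at 3.23 for KLF1-ER and 4.63 for KLF1-E339K-ER, 2.64-fold more for the mutant. Its site lay 289.5 bp downstream of the TSS in an intron and held no motif match.

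Rabs of the endoplasmic reticulum (ER) and Golgi had 4 sites, and the 2 paralogs that carry proteins from ER to Golgi differed. Rab1b had a site 34.5 bp upstream of its TSS at 5.08 for KLF1-ER and 2.91 for KLF1-E339K-ER, 4.5-fold more for the wild type, with the pyrimidine form 2 bp from the midpoint. Rab1 (Rab1a in the other table) had a site 486.5 bp upstream at 5.21 and 4.76, near balance and with no match within 50 bp. KLF1-ER signal was thus alike at the paralogs, at 5.08 and 5.21, and the mutant signal set them apart.

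Rab6a, which acts in transport back to the Golgi, had a site 9.5 bp downstream of its TSS, in an untranslated region where GENCODE M1 places both Rab6a and Mrpl48, at -0.09 for KLF1-ER and 4.47 for KLF1-E339K-ER. Rab43, another Golgi Rab, had a site 12428.5 bp upstream in an intron of Isy1, at -0.09 and 5.43. A separate site inside the Rab43 gene was assigned to Gp9 and went the other way, at 5.86 for KLF1-ER and 1.05 for KLF1-E339K-ER.

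The secretory Rabs had 2 sites, both with more wild type signal, where 28.7% of all sites had it. The strongest KLF1-ER signal of the 33 sites was that of Rab3d. Rab3d, a Rab of regulated exocytosis, stood at 7.49 for KLF1-ER and 3.68 for KLF1-E339K-ER, 14.0-fold more for the wild type, above 99.5% of all sites for KLF1-ER. Its site at chr9:21722350-21722969 was the widest of the 33, at 620 bp, lay 94.5 bp upstream of the TSS and held 4 pyrimidine forms. Rab3b, its paralog, had a site 74.5 bp downstream of the TSS at 5.55 and 2.29, 9.58-fold more for the wild type. No motif match lay within 50 bp there. The third listed paralog, Rab3a, had no site, and neither had Rab27a, the Rab of lysosome-related organelles. All 5 late endosome and lysosome Rabs (Rab7, Rab9, Rab12, Rab24 and Rab34) were without a site, where 26.4% of all listed genes had one.

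The TBC proteins had 11 sites at 8 genes, 8 with more mutant signal (72.7%, against 61.5% of all sites) and 3 with more wild type signal (27.3%, against 28.7%). Tbc1d10b, a GTPase-activating protein for Rab35, had 2 sites 833.5 bp apart. The inner one, 1076 bp downstream of the TSS, stood at 1.23 for KLF1-ER and 5.25 for KLF1-E339K-ER, 16.2-fold more for the mutant, and the other, in an untranslated region, at -0.09 and 4.71. Both leaned to the mutant, and the inner one held the purine copies shown earlier.

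Rabgap1l, at 573.765 kb the longest member, had 3 sites that split. Site 3 at its TSS stood at 5.68 for KLF1-ER and 3.37 for KLF1-E339K-ER, 4.96-fold more for the wild type. Intronic site 2, 50177.5 bp further in, stood at -0.09 and 4.24. Site 1, another 416811.5 bp on and also intronic, stood at 3.08 and 5.17. The start of the gene thus went to the wild type and its introns to the mutant. Another 2 sites inside the gene, assigned to Gpr52 and Cacybp, also had more mutant signal, at 4.43 and 6.22 and at 0.50 and 5.18.

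Its paralog Rabgap1, described as a GTPase-activating protein for Rab6, showed the reverse order. The site 160.5 bp downstream of its TSS stood at -0.09 for KLF1-ER and 5.53 for KLF1-E339K-ER, while a site deep in the gene assigned to Gpr21 stood at 4.64 and 0.34. Each paralog therefore held sites of both classes in its body.

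Tbc1d14, which binds Rab11 and tunes autophagy, and Tbc1d24, a synaptic and epilepsy-associated TBC protein, were the other TBC genes with more wild type signal. Tbc1d14 stood at 5.62 for KLF1-ER and 3.22 for KLF1-E339K-ER, 5.28-fold more for the wild type, 403 bp downstream of the TSS. Tbc1d24 stood at 5.86 and 3.05, 7.01-fold more for the wild type, 1002.5 bp upstream of its TSS and in an untranslated part of Ntn3. Both held the pyrimidine form alone.

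Tbc1d8, Tbc1d9 and Tbc1d2b had 1 mutant-favoured site each. Tbc1d8 stood at 0.91 for KLF1-ER and 5.43 for KLF1-E339K-ER, 22.9-fold more for the mutant, in an intron 7177.5 bp downstream of the TSS. Tbc1d9 stood at 1.5 and 4.72, 9.32-fold more for the mutant. Tbc1d2b, whose product acts on Rab22, stood at -0.09 and 5.24, 14769 bp downstream of the listed TSS but 73 bp from the start of another transcript in GENCODE M1. Tbc1d8 was the single one of these with no motif match within 50 bp.

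Among the effectors and exchange factors, Rab11fip3, which links Rab11 to motors in cell division, had a site 10405 bp upstream of its listed TSS, within an intron of a longer transcript, at 1.91 for KLF1-ER and 4.91 for KLF1-E339K-ER, 8-fold more for the mutant. Rab3il1, an exchange factor for Rab3 and Rab8, had a site near balance, at 4.84 and 5.39.

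The median distance from the listed TSS was 1002.5 bp, against 2936 bp over all sites, and 14 of the 33 lay within 500 bp (42.4%, against 30.2%). Of the 33, 16 lay within 1 kb of the listed TSS (48.5%, against 39.5% of all sites) and 21 within 10 kb (63.6%, against 67.6%). Of the 16 close ones, 7 had more mutant signal (43.8%, against 57.5% of all sites that close) and 5 more wild type signal (31.2%, against 31.0%). Of the 12 beyond 10 kb, 8 had more mutant signal (66.7%, against 63.9%) and 4 more wild type signal (33.3%, against 28.4%). In GENCODE M1 the midpoint fell in an intron at 19 sites, in an untranslated region at 7, between genes at 6 and in a coding exon at 1. For 26 of the 33 sites the nearest start of the same gene in GENCODE M1 was within 1 kb of the listed distance.

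**Figure D4:**
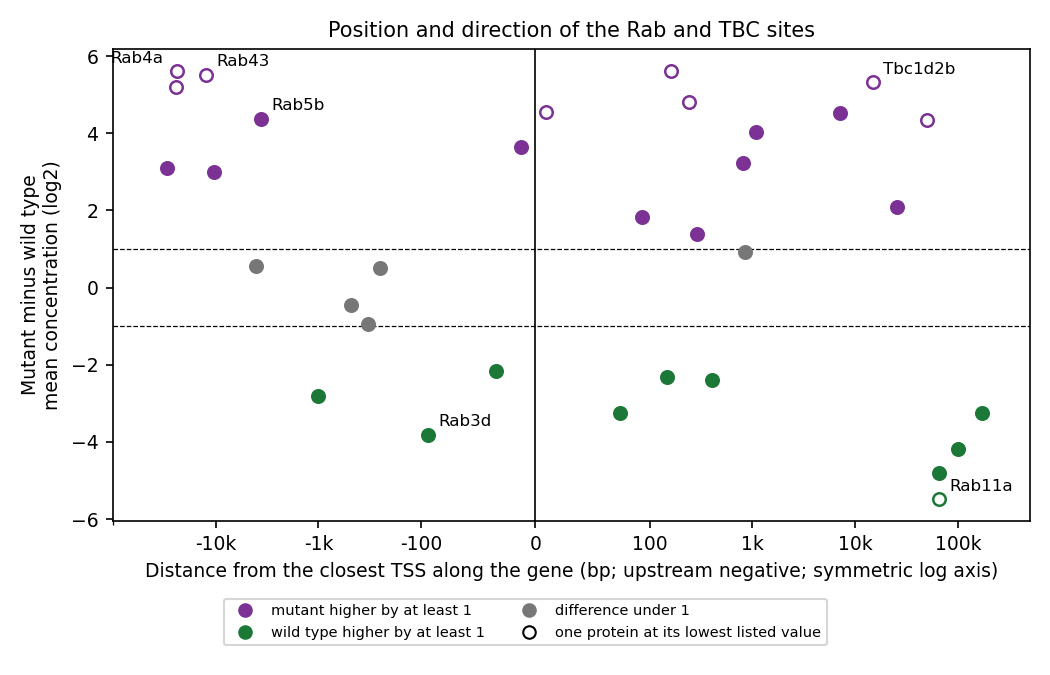
Difference of the 2 mean concentrations, mutant minus wild type (y axis, log2), against the distance of the site's midpoint from the listed TSS along the gene (x axis, bp, symmetric log scale, upstream negative) for the 33 sites, with dashed lines at the 2-fold rule. Open symbols mark sites where one protein was at its lowest listed value; the 4 Rab11a sites stand apart at the lower right, from 65615.5 bp downstream onwards.

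A wider net gave more sites near these genes. In GENCODE M1, 23 more sites lay inside a member gene or within 10 kb of it but were assigned to another gene, at 17 members, 7 of them without a site of their own. Of these sites 10 had more mutant signal (43.5%, against 61.5% of all sites) and 12 more wild type signal (52.2%, against 28.7%), the opposite balance to the sites assigned to members, and 4 lay inside the gene. That difference was not tested. Near Rab25, an epithelial paralog of Rab11, 3 sites assigned to Ubqln4, Mex3a and Mir1905 all had more mutant signal, with KLF1-E339K-ER at 6.61, 7.06 and 6.35. Near Rab24, which acts in autophagy, 2 sites assigned to Mxd3 both had more wild type signal, with KLF1-ER at 6.29 and 4.77.

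The RefSeq promoter sequences (GRCm38.p6, 250 bases before to 50 after the start) were matched for 66 of the 77 members. The purine form was found on either strand in 26 of them (39.4%, against 29.9% of the promoters of all listed genes) and the pyrimidine form in 40 (60.6%, against 51.5%). Of the 14 members with a site within 1 kb, 7 held the purine form and 9 (64.3%) the pyrimidine form in that promoter window. Among the 52 members without such a site, 19 held the purine form (36.5%) and 31 the pyrimidine form (59.6%). With 14 promoters on one side these shares rest on few genes, and their difference was not tested.

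The expression tables give 1 mean per gene over all libraries of the authors' fit, K1, K1-ER and K1-E339K-ER together, so these levels cannot be told apart by group. Whether the authors counted reads over whole genes or over exons is not given in the sources used here. On the assumption that nascent RNA was counted along the whole gene, levels were set against each other per kb of gene, as log2 CPM minus log2 of the length in kb. On that scale the median over the 77 members was 0.01, with quartiles of -1.37 and 1.31, below the 0.82 of all listed genes, whose quartiles were -0.87 and 2.26. Members were longer, with a median of 30.1 kb against 21.0 kb, and before the length was taken out the medians were nearly equal, at 5.23 and 5.27 log2 CPM. The lower median of the members per kb thus rests on the length correction and its assumption. The TBC genes were the longest group, at a median of 62.6 kb, and their median level per kb was -0.54, against 0.24 for the Rab GTPases.

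The highest levels per kb were those of Tbc1d10b (4.29), Rab3a (3.90), the autophagy Rab Rab24 (3.59), Rab3il1 (3.51) and Rab35 (3.34), a Rab of fast recycling. Of these, Tbc1d10b and Rab3il1 had sites and the others had none. The lowest were Rab15 (-6.69), Rab40b (-6.00), Rab27a (-5.37), Rab11fip5 (-5.32) and Rab3b (-5.20), of which Rab3b alone had a site. Rab11fip4, an effector of Rab11, had the highest level before the length was taken out, 9.58 log2 CPM, and no site.

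By role, the late endosome and lysosome Rabs had a median of 0.61 per kb, from Rab34 (-1.37) to Rab24 (3.59). The ER and Golgi Rabs had 0.37, from Rab2b (-2.19) to Rab33b (2.46), and the recycling Rabs 0.19, from Rab15 to Rab35. The early endosome Rabs had -0.39, from Rab31 (-3.51) to Rab5c (2.17), and the secretory Rabs -2.45. Every role spanned at least 4 log2 units, more than the distance between the medians of any pair of roles, so the members of a role did not share a level.

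Paralogs differed as widely. Rab3a stood at 3.90 per kb, Rab3d at -2.45 and Rab3b at -5.20, so the paralogs with a site favoured by KLF1-ER stood below the paralog with none. Before the length was taken out, Rab3d and Rab3b were both low and nearly equal, at 0.96 and 0.80 log2 CPM. Their gap per kb thus came mostly from gene length, 10.6 and 64.3 kb. A link between the sites and these levels was not tested. Rab5c stood at 2.17, Rab5b at -0.06 and Rab5a at -0.72. Rab11b stood at 1.92 and Rab11a at 0.26, and Rab4b at 0.52 and Rab4a at -2.16. The spread between libraries is not in the files, so which of these neighbours differ beyond it was not tested.

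**Figure D5:**
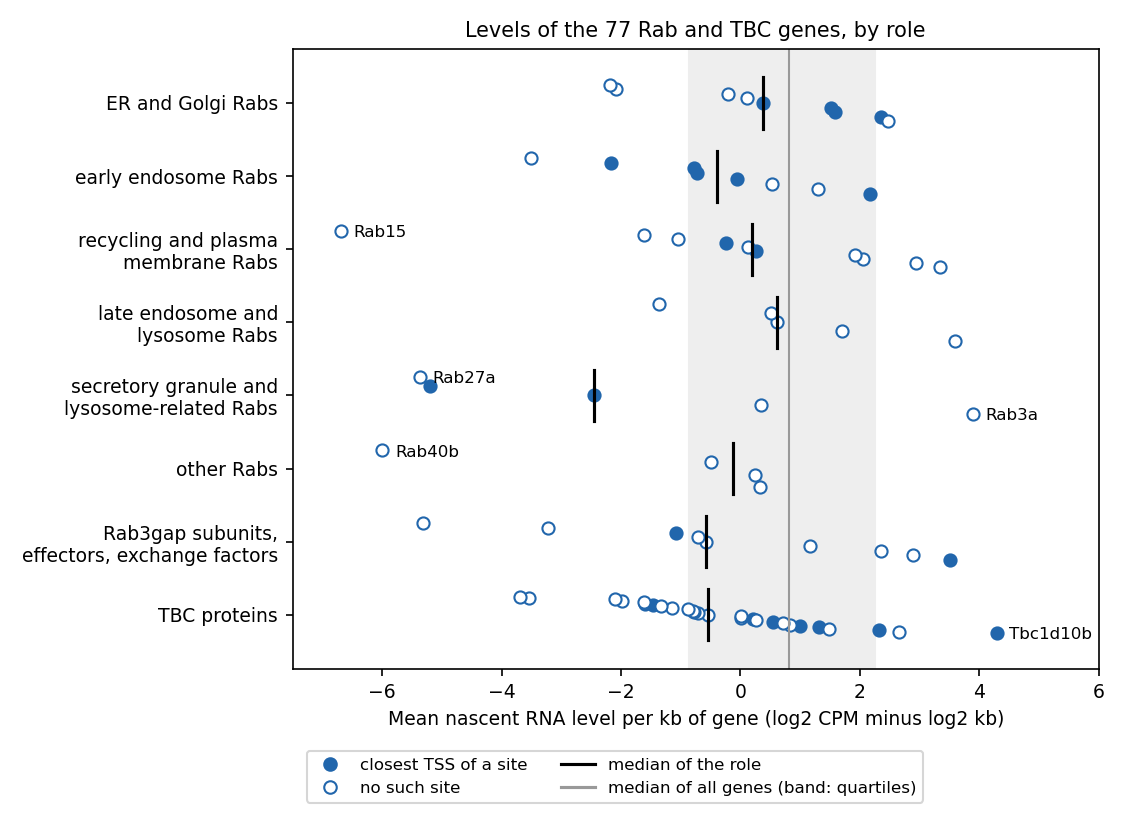
Mean nascent RNA level per kb (x axis, log2 CPM minus log2 kb) of the 77 genes, one point a gene, in rows by role, with filled points for genes that are the closest TSS of a site. Black bars mark the median of a role, the grey line and band the median (0.82) and quartiles of all listed genes; points reach from Rab15 at -6.69 to Tbc1d10b at 4.29.

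Members with a site had a median of 0.26 per kb and those without one -0.11. A site was assigned to 23 of 77 members (29.9%), against 26.4% of all listed genes.

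Other genes of Rab regulation, 73 symbols not caught by the naming rule, gave 63 listed genes with a median of 0.89 per kb. Of these, 16 had a site, 24 sites in all, with more mutant signal at 11 (45.8%, against 61.5% of all sites), more wild type signal at 9 (37.5%, against 28.7%) and 4 between. None of the 8 genes grouped with Rab prenylation and membrane extraction, Rabif and Rabac1 among them, had a site. Sites were assigned to 5 of 26 exchange factors (19.2%), 4 of 7 TBC proteins with another name (57.1%) and 7 of 22 effectors (31.8%). The share was 25.4% over the 63 genes and 26.4% over all listed genes. Rabep1, which binds Rab5, stood at 0.91 for KLF1-ER and 4.84 for KLF1-E339K-ER at its TSS, and its paralog Rabep2 at 5.62 and 2.22. Rin1, an exchange factor for Rab5, stood at -0.09 and 4.81. The effector Eea1 stood at -0.09 and 5.79, and the effector Appl2 at 3.95 and 5.1 and at 0.5 and 5.25. Of the genes Rabep1, Rabep2, Rin1, Eea1 and Appl2, Rabep2 alone had more wild type signal. Sgsm2, a TBC protein, had 2 neighbouring sites that went opposite ways, at 5.64 and 3.37 and at -0.09 and 3.98.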

How the data were processed

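4sU-labelled RNA was sequenced from K1 and K1-E339K-ER cells, and ChIP and input DNA from K1-E339K-ER cells. The authors mapped reads to mm9 with TopHat2 (2.0.10 in the submitters' processing notes) and TMAP, fitted RNA with limma-voom, called peaks with MACS2 and GEM, and set the 2 proteins against each other in DiffBind. Versions of the others, the counting tool and the annotation are not given in the sources used here. The labels give 500 µM 4sU for 30 min, and the methods text states another dose and time.

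The deposited log2 values used were the authors' mean log2 CPM per gene, over all libraries of their fit, and the mean log2 concentration per site and protein. Gene lengths, site positions and distances to the closest TSS were used as deposited. The deposited fold change, t, p-value and adjusted p-value or FDR columns hold the authors' own comparisons and were not used. No test was run, since no value per library was analysed here, and the depth of the libraries is unknown.

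Rows of the 2 gene tables were paired by Entrez identifier, length and mean level, and the symbol differed for 1 member. Sites belong to the gene the authors list as closest TSS. A listed distance is the TSS minus the midpoint, and this sign matched GENCODE M1 at 33 of 33 sites, with a start within 100 bp of the listed distance. Sequence was read from NCBIM37 (mm9) with pysam 0.24.0 and samtools 1.23.1, and tables were made in Python 3.11.15 with pandas 2.3.3 and numpy 2.4.6. The motif search was tested on simulated sequence. Named genes are all members with a site, the 5 highest and 5 lowest per kb, paralog families, and the ends of each role; Rab11fip4, Rab25 and the genes of Rab regulation with a site were named after their values were seen. The members, roles and lists were chosen with earlier results of these data known. The alternatives changed the 2-fold rule, the distance to the TSS, the sites at the lowest values, the motif window, the genes counted and the length correction.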

Additional observations from a re-analysis of the deposited data

How the results depend on the processing

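The count of mutant-favoured sites, 18, became 10 without sites at the lowest listed concentrations (41.7%, against 50% of all such sites). It became 9 where the higher concentration had to reach 5 (40.9%, against 59.5%), and 10 with the closest TSS within 10 kb (47.6%, against 60.4%). The count of wild type-favoured sites, 10, became 6 with the closest TSS within 10 kb, since the 4 Rab11a sites left. As a share that was 28.6%, against 28.8% of all sites that close. The wild type-favoured count also became 6, and the mutant-favoured count 14, with sites inside the member gene or within 10 kb of its TSS. That choice was made after seeing the data, and no whole-set share is given for it. Genes with a site fell from 23 to 14 within 1 kb, with no whole-set share given at that distance. Sites with the purine form rose from 9 to 17 over the whole site, a wider window for which no whole-set share is given. These then included the wild type-favoured Rab11a site 2, Tbc1d14 and Rabgap1l site 3, so the absence of that form there held for the narrow window. The median level per kb was 0.01, beside 0.82 over all listed genes. With no length correction both medians changed scale, to 5.23 and 5.27 log2 CPM. The median per kb became 0.11 for mean levels of at least 0, 0.24 for Rab GTPases and -0.54 for TBC proteins. The other 18 alternatives moved a count by less than 1.5 times. No paired analysis was possible because the files hold means and no value per library, so leaving out a replicate was not possible either. Differences between means may lie within the spread of libraries, and low concentrations rest on few reads. The KLF1-E339K-ER concentrations come from 1 pooled ChIP library of 1 clone.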
